A study of Homo sapiens with 2 samples.

Results

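BCL2, BCL2L11, CDKN1A and SESN1, a set of genes for cell survival, cell death and cell cycle arrest, were followed in the breast cancer line MDA-MB-231. They were taken by gene symbol and make up 4 of the 2046 genes of the table analysed here. MDA-MB-231 is an established human triple-negative breast cancer line, and the study compared wild-type cells (labelled TAMER+/+) with cells of the same line after knockout (TAMER-/-), which the series design describes as a knockout of TMEM25. Culture was in DMEM and fetal bovine serum for both genotypes, no other treatment is labelled, and the labels do not say whether the knockout cells were 1 clone or a pool. Each genotype had 1 library, so no value has a replicate check and no test between genotypes was made.

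The BCL2 family decides whether the outer membrane of the mitochondrion stays intact. BCL2 is a pro-survival member that holds back the pore formers BAX and BAK1, and BCL2L11, also called BIM, is one of the BH3-only members that bind BCL2 and its relatives and so promote death. CDKN1A encodes p21, which inhibits cyclin-dependent kinases and halts the cell cycle, and SESN1 encodes sestrin 1, which restrains the growth kinase complex mTORC1. CDKN1A and SESN1 are textbook targets of the transcription factor p53, while BCL2L11, CDKN1A and SESN1 are also known as targets of the FOXO factors. MDA-MB-231 is known for mutant p53, and whether p53 acted on these genes was not tested. The series title asks about STAT3, which has been described as a regulator of BCL2 and CDKN1A.

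The table is one-sided, because all 2046 genes had a knockout value of at least 1 and a deposited ratio of at least 2. A higher value in the knockout library is therefore a condition for being in the table and not a finding about these 4 genes. What the data add is how high each gene stood, how far apart the libraries were and how the genes differed from each other. TMEM25 was not analysed here, so the loss of its RNA could not be checked. None of the 4 markers of MDA-MB-231 that were looked for (VIM, CD44, EGFR and AXL) was among the genes of the table, and they were not analysed here. Of 12 luminal breast markers 3 were in the table, where 10.1% of all protein-coding genes were. TFF1 was at 5920 in the knockout against 0.94 in the wild type, TFF3 at 127.85 against 3.68 and EPCAM at 419.58 against 145.74. The other luminal markers (ESR1, PGR, GATA3, FOXA1, KRT8, KRT18, KRT19, MUC1 and XBP1) were not in it and were not analysed here. TFF1, TFF3 and EPCAM are luminal markers, while the line named for both genotypes is triple-negative. Whether both libraries came from that line was not tested, nor was the part of these 3 genes in the values below. With 1 library per genotype, an effect of the knockout cannot be told apart from any other difference between the 2 cultures. Of 6 basal markers SFN alone was in the table, and of 6 fibroblast and 6 leukocyte markers none was. In RNA of whole cultures, fewer cells that make a transcript and less of it per cell cannot be told apart.

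The stretches of DNA where these genes start are shown because 3 of the genes differed between the libraries by folds that counting error did not separate, and because their sequences hold different matches to known motifs. Each runs from 250 bases before to 50 bases after a start site, 5′ to 3′ on the strand of the gene, from RefSeq on GRCh38.p14, and all 4 genes were matched. Capitals mark matches on either strand to any of 6 motifs, namely a STAT motif (TTCNNNGAA), a FOXO motif (GTAAACA), the GC box (GGGCGG), the TATA box (TATAAA), the p53 decamer and the estrogen response element (GGTCA and TGACC with any 3 bases between).
BCL2L11, plus strand, chr2:111120664-111120963: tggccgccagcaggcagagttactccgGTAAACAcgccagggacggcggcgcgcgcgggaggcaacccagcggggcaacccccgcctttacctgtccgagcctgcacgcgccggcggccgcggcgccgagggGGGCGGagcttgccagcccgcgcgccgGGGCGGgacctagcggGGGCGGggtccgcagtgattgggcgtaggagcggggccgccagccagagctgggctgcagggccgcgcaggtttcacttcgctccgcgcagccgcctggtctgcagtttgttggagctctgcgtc
CDKN1A, plus strand, chr6:36678464-36678763: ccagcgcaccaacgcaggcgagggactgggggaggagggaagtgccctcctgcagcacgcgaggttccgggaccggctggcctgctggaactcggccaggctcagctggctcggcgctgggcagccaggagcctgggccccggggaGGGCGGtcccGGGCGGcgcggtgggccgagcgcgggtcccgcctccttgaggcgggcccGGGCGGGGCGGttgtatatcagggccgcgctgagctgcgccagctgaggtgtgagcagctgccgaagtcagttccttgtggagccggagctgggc
SESN1, minus strand, the most downstream of its 3 starts, chr6:109008939-109009238: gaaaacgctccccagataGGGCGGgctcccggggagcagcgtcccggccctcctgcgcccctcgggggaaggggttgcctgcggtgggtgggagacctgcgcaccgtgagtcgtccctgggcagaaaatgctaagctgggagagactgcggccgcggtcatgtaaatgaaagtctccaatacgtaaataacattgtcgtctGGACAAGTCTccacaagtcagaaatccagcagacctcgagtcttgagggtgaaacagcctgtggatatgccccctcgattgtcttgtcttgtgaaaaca

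The BCL2L11 stretch held 1 FOXO match, beginning 223 bases before the start, which 3.42% of 35116 promoters of this length also held, and 3 GC boxes. CDKN1A held 4 GC boxes and no other match. The GC boxes at 45 and 40 bases before its start overlap by 1 base. The SESN1 stretch shown held the only p53 decamer among the 4 genes, beginning 49 bases before the start, and 1 GC box. This decamer is a half-site, so the match is to part of a p53 site only, and 6.63% of promoters had such a match. The other starts of SESN1, at positions 109094846 and 109009552 of chromosome 6, had 8 and 5 GC boxes and no other match. At least 1 GC box was present in 45.0% of promoters and 4 or more in 9.06%. The BCL2 stretch (chr18:63319720-63320019, minus strand) held no match to any of the motifs. No STAT motif, TATA box or estrogen response element was found at any of these starts, against 7.66%, 11.5% and 0.0570% of promoters. GC content was 70.7% at BCL2, 74.7% at BCL2L11, 74.3% at CDKN1A and 75.0%, 72.3% and 58.0% at the SESN1 starts, beside a median of 58.7%. A match describes the letters of these windows only, and sites farther away were not searched.

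BCL2, the pro-survival gene, was near the limit of detection in the wild-type library and at a low level in the knockout library. It lies on the minus strand of chromosome 18 (63123346 to 63320128, GRCh38, GENCODE 29). Its deposited expression value, taken here as scaled for gene length and library depth, was 0.08 in the wild-type library and 4.71 in the knockout library. These values rest on 3 and 461 reads. The read-count fold, the ratio of reads after scaling for depth, was 133 with a 95% counting interval of 45.2 to 647, and the width comes from the 3 wild-type reads. On the log2(value + 1) scale, which understates low genes, the difference between the libraries was 2.40, and with 5 in place of 1 it was 0.93, below 2-fold. Even in the knockout library BCL2 ranked 1442nd of the 2046 genes by expression value.

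BCL2L11, the pro-death gene, was present in both libraries. It lies on the plus strand of chromosome 2 (111119378 to 111168447). Its expression value was 3.76 in the wild-type library and 18.22 in the knockout library, from 293.1 and 1626.25 reads. After scaling, the read-count fold came to 4.80 (4.24 to 5.46) and the log2(value + 1) difference 2.01. GENCODE lists 17 protein-coding transcripts for this gene, from 243 to 5231 bases long. The table gives 1 value for the gene in each library, and which transcripts carried the reads was not analysed here.

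CDKN1A was the most abundant of the 4 genes. It lies on the plus strand of chromosome 6 (36676460 to 36687339). Its expression value was 17.92 in the wild-type library and 82.26 in the knockout library, from 616 and 3237 reads, which placed it 377th and 283rd of 2046. After scaling, the read-count fold came to 4.55 (4.17 to 4.97) and the log2(value + 1) difference 2.14.

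SESN1 lies on the minus strand of the same chromosome (108986437 to 109094819), far from CDKN1A. Its expression value was 2.30 in the wild-type library and 13.36 in the knockout library, from 114 and 716 reads. After scaling, the read-count fold came to 5.44 (4.46 to 6.68) and the log2(value + 1) difference 2.12. All 4 genes overlap a non-coding gene on the opposite strand in GENCODE, and since the use of strand in counting is not given in the sources used here, reads of the partners (AC022726.2 for BCL2, MIR4435-2HG for BCL2L11, DINOL for CDKN1A and AL390208.1 for SESN1) could be included. Genes on the same strand also overlap BCL2 (AC022726.1, intronic) and SESN1 (RNU6-653P), and their reads could be included whatever the use of strand.

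**Figure D1:**
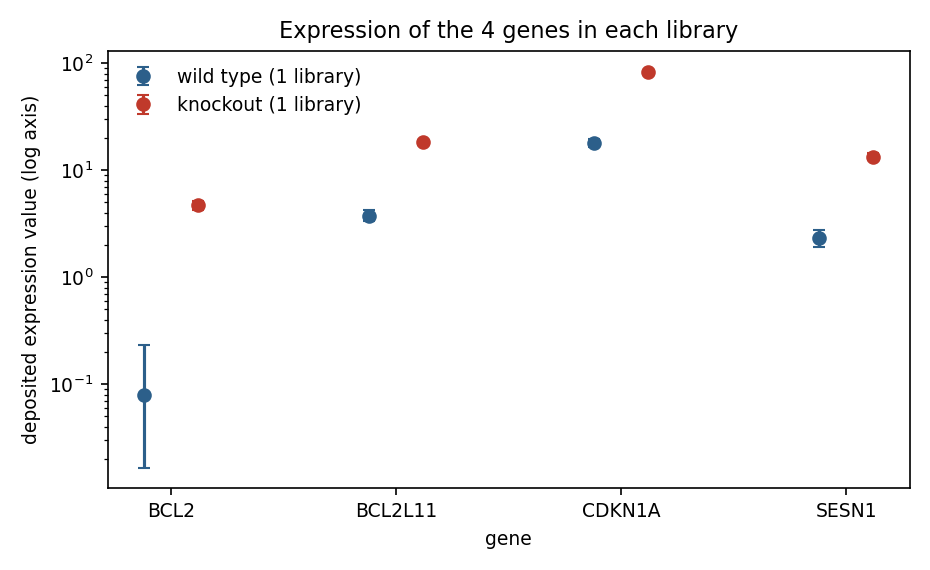
Deposited expression values (log axis) of the 4 genes in the wild-type (blue) and knockout (red) libraries, 1 library each, with bars for the 95% counting interval of the reads behind each value. Each gene sits higher in the knockout library, and the wild-type value of BCL2, 0.08 from 3 reads, is the lowest and least precise.

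The order of the expression values was the same in both libraries, with CDKN1A highest, then BCL2L11, SESN1 and BCL2. The closest neighbours were BCL2L11 and SESN1. In the knockout library their 95% counting intervals were 17.3 to 19.1 and 12.4 to 14.4, and in the wild-type library 3.34 to 4.22 and 1.90 to 2.76, so they did not overlap in either. Intervals here and throughout cover counting error only, since the reads carried no molecular identifiers, may repeat the same molecule, and spread between cultures was not measured.

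All 4 genes were at least 2-fold higher on the log2(value + 1) scale, as were 80.6% of the genes of the table. All 4 were also at least 4-fold higher, against 21.3% of the table, and had a read-count fold whose lower limit was above 4, against 32.4%. The genes were chosen with their values known, so these shares are background and no support. By the size of the log2(value + 1) difference, BCL2 ranked 250th, CDKN1A 359th, SESN1 364th and BCL2L11 428th of 2046.

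**Figure D2:**
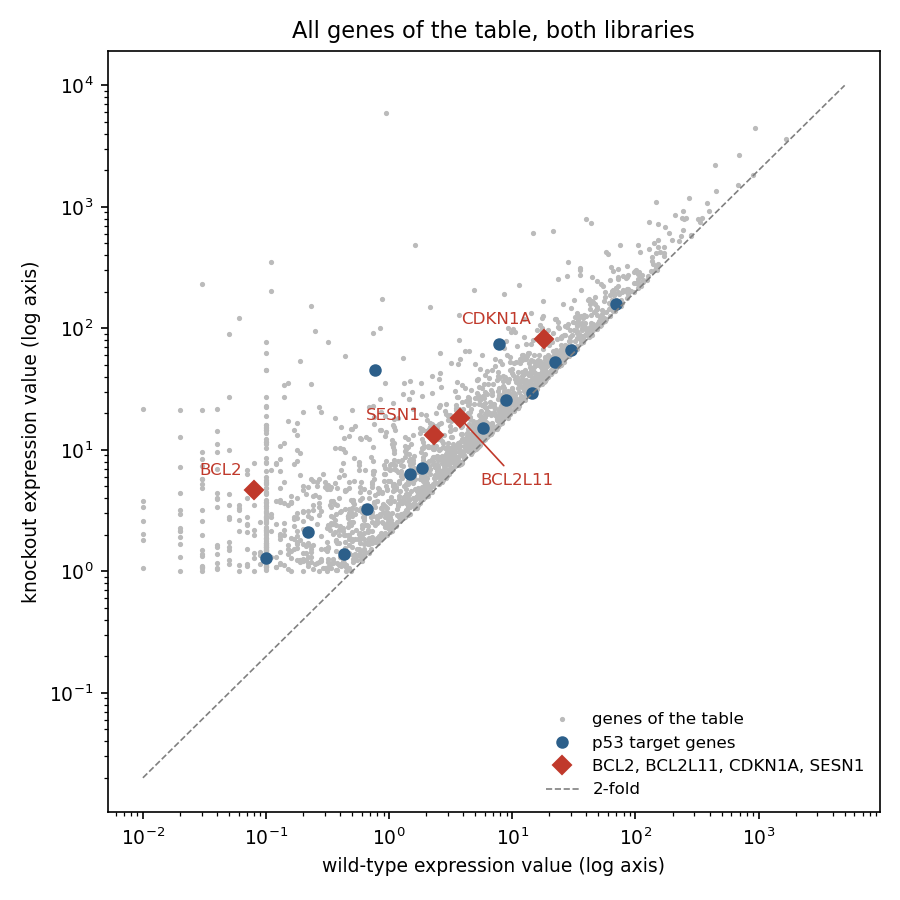
Knockout against wild-type expression value (both log axes) for all 2046 genes of the table (grey), the other p53 target genes (blue) and the 4 genes (red), with a dashed line at 2-fold. Every gene lies on or above the line by construction of the table, and BCL2 (0.08 against 4.71) lies farther from it than BCL2L11, CDKN1A and SESN1.

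The folds of BCL2L11, CDKN1A and SESN1 could not be told from each other within counting error, while that of BCL2 was larger. The ratio of 2 genes' read folds does not depend on the scaling between libraries, because the scaling cancels. It was 1.06 for BCL2L11 over CDKN1A (95% interval 0.906 to 1.23), 0.883 for BCL2L11 over SESN1 (0.693 to 1.12) and 0.837 for CDKN1A over SESN1 (0.668 to 1.04). All of these intervals include 1, and differences of the size they span are not excluded. BCL2 had a fold 27.7 times that of BCL2L11 (9.30 to 136), 29.2 times that of CDKN1A (9.89 to 143) and 24.5 times that of SESN1 (8.07 to 121). From the deposited expression values, BCL2 stood apart by less, at 12.1, 12.8 and 10.1 times.

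The balance of BCL2 to the genes that oppose it differed between the libraries. Per unit of length, BCL2 was at 0.259 of BCL2L11 in the knockout library and at 0.0213 in the wild-type library. BCL2L11 was the more abundant RNA in both. Against BAX, the pore former, BCL2 was at 0.0899 and 0.00361, and the read fold of BCL2 was 57.6 times that of BAX (19.3 to 282). Against the BH3-only genes PMAIP1 (NOXA) and BIK, it was 34.9 times (11.1 to 175) and 37.3 times (10.9 to 195). From the expression values the ratios were smaller, at 24.9 times for BAX, 15.4 for PMAIP1 and 16.5 for BIK. These ratios all share the 3 wild-type reads of BCL2, and they compare RNA, not protein.

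The 2 deposited measures of BCL2 did not move together. Reads per unit of expression, which reflect transcript length, were 97.9 for the knockout but 37.5 for the wild type. After scaling between libraries the ratio of these was 2.26, and rounding of the values to 2 decimals allows 2.12 to 2.40. At the knockout library's reads per unit, 3 wild-type reads would give a value of 0.0354 in place of the deposited 0.08. Among the 230 genes whose wild-type reads numbered 1 to 10, 6 including BCL2 had a ratio above 1.5 over the whole range that rounding allows. Another 4 of them lay below 1 by a factor of more than 1.5 over that range. GENCODE lists 3 protein-coding BCL2 transcripts of 3209 to 7461 bases, and which of them carried the reads was not analysed here. The ratio was 0.991 for both BCL2L11 and CDKN1A. For SESN1 it was 0.936, with 95 (8.38%) lying lower among the 1133 genes that had 100 or more wild-type reads.

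**Figure D3:**
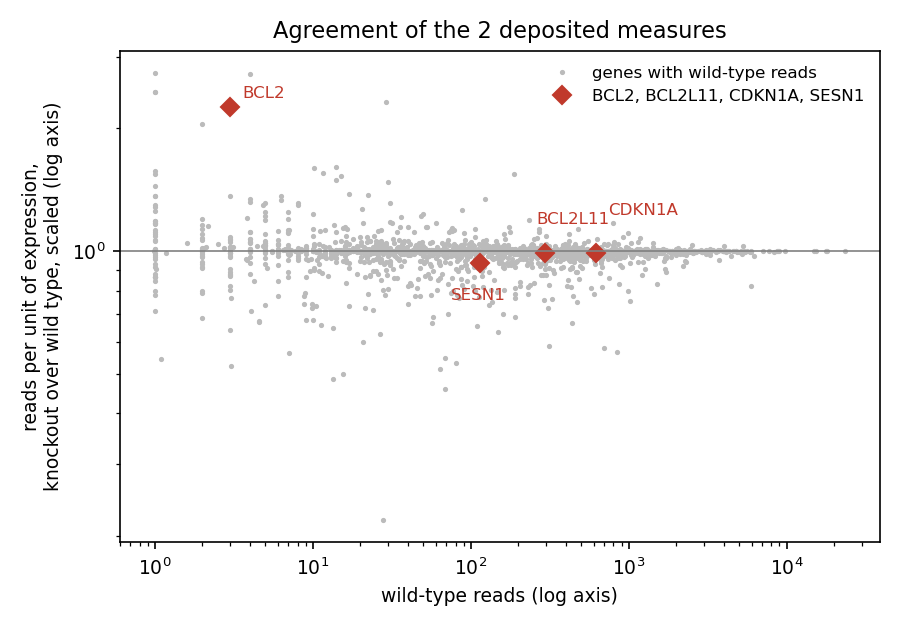
Reads per unit of expression in the knockout over the wild-type library, after scaling (log axis), against wild-type reads (log axis), for the genes with wild-type reads (grey) and the 4 genes (red). BCL2 lies at 2.26 with 3 wild-type reads, while BCL2L11, CDKN1A and SESN1 lie between 0.936 and 0.991.

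The table held 5 of 25 genes of the BCL2 family, where it held 10.1% of all 19940 protein-coding genes, a share that also counts genes silent in these cells. All 5 were at least 2-fold higher, beside 80.6% of the table, with a median log2 difference of 1.50 beside 1.33. Nothing particular to this list or to those that follow is read from such counts. BCL2 was the only one of 6 pro-survival genes, and BAX the only one of 3 pore formers, at 52.38 in the knockout and 22.18 in the wild type (read-count fold 2.31, 2.02 to 2.65). Of 8 BH3-only genes, BCL2L11, PMAIP1 (7.03 against 1.84, fold 3.81) and BIK (5.74 against 1.61, fold 3.57) were in it. None of 8 more distant relatives was, and members outside the table, such as MCL1, BCL2L1 and BBC3, were not analysed here. Downstream of the mitochondrion, 3 of 18 caspase, apoptosome and inhibitor genes were in the table and 2 were at least 2-fold higher. These were XIAP, an inhibitor of caspases, at 16.57 against 6.19 (fold 2.67), and AIFM1, a mitochondrial flavoprotein, at 40.87 against 19.62 (fold 2.08). The counting interval of the AIFM1 fold, 1.91 to 2.28, includes 2. The initiator caspase gene CASP10, at 2.18 against 0.67, fell short of 2-fold on the log2(value + 1) scale. Its read-count fold was 3.19 (2.38 to 4.27), with the whole interval above 2. Of 11 death receptor and adaptor genes only TNFRSF1A, a receptor for tumor necrosis factor, was in the table, at 73.92 against 14.07 (fold 5.23, 4.75 to 5.75).

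Of 7 CDK inhibitor genes, CDKN1A was the 1 in the table, a share close to the 10.1% of all protein-coding genes. Of 18 genes for G1/S cyclins, their kinases and the RB/E2F factors, only CDK6, a kinase that drives G1, was in it, with a fold of 5.60 (4.57 to 6.87) from values of 3.33 and 0.59. None of 13 genes of G2 and mitosis was in the table. Whether the remaining cell cycle genes were lower or alike in the knockout library was not analysed here.

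Of 33 genes known as p53 targets 16 were in the table, and 14 of these were at least 2-fold higher, beside 80.6% of the table, with a median log2 difference of 1.36 beside 1.33. Without CDKN1A and SESN1 the median of the remaining 14 was 1.31. The share of all protein-coding genes that were in the table was 10.1%. Whether p53, known as mutant in MDA-MB-231, acted on any of these 16 genes was not tested. GDF15, a secreted stress cytokine, had the largest fold of those with wild-type reads, 59.7 (37.1 to 103), at 45.73 against 0.77. PPM1D, a phosphatase that p53 induces and that dampens p53, had a fold of 9.51 (8.75 to 10.4), at 73.87 against 7.77. Of 12 genes for p53 and its regulators it was the 1 in the table, where 10.1% of all protein-coding genes were. CDKN1A, SESN1, GDF15 and PPM1D were the 4 of the 16 p53 targets that were at least 4-fold higher, beside 21.3% of the table.

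Apart from BAX and PMAIP1, given above, the remaining p53 targets with wild-type reads had folds of 2.04 to 9.43. PLK3, a stress-responsive kinase (2.11 against 0.22), TIGAR, which slows glycolysis (3.29 against 0.66), and GADD45A, a growth arrest gene (6.29 against 1.48), had folds of 9.43 (4.77 to 21.2), 4.99 (3.96 to 6.31) and 4.33 (2.93 to 6.59). PHLDA3, an inhibitor of AKT, AEN, an apoptosis-enhancing nuclease, SFN, the cell cycle regulator 14-3-3 sigma, and RPS27L had folds of 2.92, 2.64, 2.31 and 2.22. RPS27L closely resembles RPS27, and reads the pair shares may have been assigned to either. RRM2B, a ribonucleotide reductase subunit, at 29.55 against 14.54, and the receptor gene EDA2R, at 1.40 against 0.43, fell short of 2-fold on the log2(value + 1) scale. Their read-count folds were 2.04 (1.91 to 2.19) and 3.10 (1.95 to 5.10). SPATA18, a gene of mitochondrial quality control, had 92 reads against 0, at least 26.5-fold higher when 3 reads stand for the 0, with a lower counting limit of 21.2.

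The FOXO list held BCL2L11, CDKN1A and SESN1 together. Of 23 FOXO factors and targets 10 were in the table, where 10.1% of all protein-coding genes were. All 10 were at least 2-fold higher, beside 80.6% of the table, with a median log2 difference of 1.46 beside 1.33. FOXO4 was the one factor of the 3 on the list, with a fold of 3.24 (2.70 to 3.87) from values of 9.55 and 2.94. The insulin pathway genes INSR (4.56 against 1.23) and IRS2 (5.54 against 1.45) had folds of 3.71 and 3.83. SOD2, a mitochondrial antioxidant enzyme, was at 45.39 against 20.67, while its read-count fold of 1.65 (1.53 to 1.78) lay below 2. PINK1, a kinase of mitochondrial quality control, had a fold of 2.18, and its interval of 1.99 to 2.39 includes 2. SESN3, a second sestrin, had 372 reads against 0, at least 107-fold higher when 3 reads stand for the 0, with a lower counting limit of 86.9. SESN1 and SESN3 were the only ones of 22 genes for sestrins and amino acid sensing to mTORC1 in the table, a share close to the 10.1% of all protein-coding genes.

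**Figure D4:**
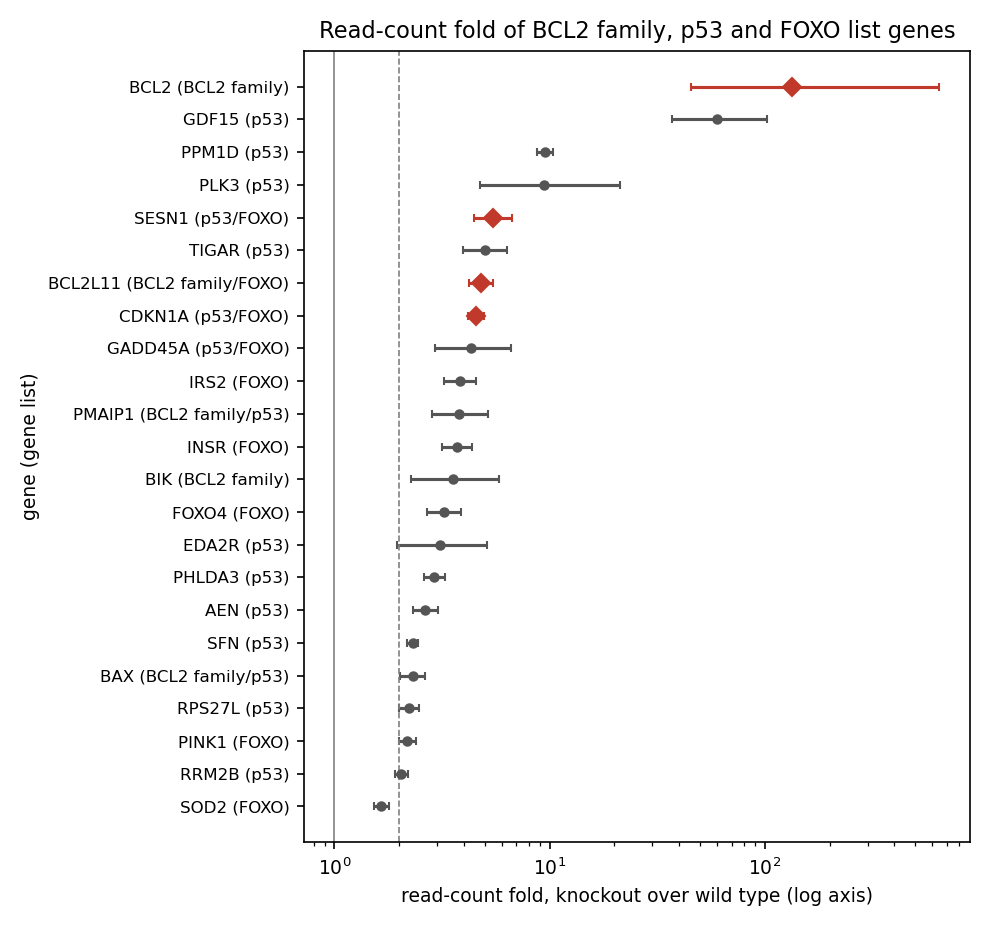
Read-count fold, knockout over wild type (log axis), with 95% counting intervals, for 23 of the 25 genes of the BCL2 family, p53 and FOXO lists that were in the table. SESN3 and SPATA18 had 0 wild-type reads and are not drawn, red diamonds are BCL2, BCL2L11, CDKN1A and SESN1, the dashed line marks 2-fold, and 19 of the genes have their whole interval above it, as do 76.5% of all genes of the table.

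Of 9 survival and cell cycle genes described as STAT3 targets, BCL2, CDKN1A and the kinase gene PIM1 were in the table. PIM1 had a fold of 2.09 (1.54 to 2.86) from values of 2.92 and 1.40, short of 2-fold on the log2(value + 1) scale. Of 15 estrogen-responsive genes, BCL2 was in the table with TFF1, whose values are given above, and MYB, a transcription factor, at 12.70 against 5.03 (fold 2.70). Over all protein-coding genes 10.1% were in the table, and 80.6% of the table was at least 2-fold higher. Nothing particular to these 2 lists is read from their counts.

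The genes closest to each of the 4 in level, by Euclidean distance over log2(value + 1) of both libraries, are given as a description of level alone, since only 2 libraries were measured. For CDKN1A they were CPE (distance 0.080), LEO1 (0.084) and OGFR (0.22), and only 5 genes lay within 0.25. For SESN1 they were CPNE2 (0.040), ST6GALNAC4 (0.14) and CCDC74A (0.14), with 18 genes within 0.25. For BCL2L11 they were ALDH5A1 (0.14), LOC101928422 (0.14) and GNB5 (0.19), with 16. For BCL2 they were HIST1H4J (now H4C11, 0.036), FABP5 (0.038) and MATK (0.070), with 31. All 3 of the genes nearest to BCL2 had 0 wild-type reads, where the table gives 0.1 in place of a value, so their likeness to BCL2 in the wild-type library rests on that figure. FABP5 and the histone gene also have close copies in the genome.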

How the data were processed

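RNA of 1 wild-type and 1 knockout library was analysed from 1 table of 2046 genes, and the number of columns not matched to a sample was 0. Tools named in the submitters' processing notes are HISAT2 2.0.4 and CASAVA 1.4, on GRCh38.p12. Which counter and annotation were used, and whether by strand, is not given in the sources used here. Per the file headers, the authors deposited an expression value, a signal with no statement of FPKM or TPM, and a read count per library, an expected count. The deposited ratio is knockout over wild type in 2046 of 2046 genes (tolerance 1e-06). The authors' deposited log2 column headed wild type holds knockout over the mean of both libraries in 2046 of 2046 genes, against its header. The log2 column headed knockout was not checked. Neither was used, so the direction rests on the headers of the other columns.

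Genes were matched by Entrez number to RefSeq (2034 of 2046) and GENCODE 29. For the read-count fold, knockout reads over wild-type reads were divided by 1.155. This factor is the median, over the 1133 genes that had 100 or more wild-type reads, of knockout over wild-type reads per expression unit. Its interval, and that of the ratio of 2 folds, was an exact conditional 95% interval on rounded counts (Python 3.11.15, SciPy 1.17.1). Only the interval of the fold and the scaling were checked, on simulated independent whole counts. Of the deposited counts, 43.7% were not whole in the knockout and 40.7% in the wild type, which the check does not cover. A call of 2-fold used size alone at a pseudocount of 1 and a minimum value of 1 in 1 of the libraries. Depth is known only for the listed genes, whose median was 677.8 knockout and 142 wild-type reads. The 4 genes and the 15 lists (178 genes, 33 in the table) were chosen with earlier results of these data known. Named were the 4 genes, list members in the table, the 3 nearest genes by level, luminal markers, and genes overlapping on the opposite strand, which were added after the values were seen. Alternatives were other pseudocounts, centring, a filter at a mean of 5, a 4-fold rule, the deposited ratio and other read scalings.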

Additional observations from a re-analysis of the deposited data

How the results depend on the processing

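Every difference of the 4 genes kept its direction under every alternative run, as the table's selection largely requires. Of 120 recomputed values 70 moved by less than the counting error or, for counts, by at most 1.5 times, and 50 moved by more. A limit on the counting interval, added after seeing the data, moved no count by over 1.5 times. With a pseudocount of 0.1 the log2 difference was 4.74 for BCL2, 2.25 for BCL2L11 and 2.49 for SESN1, and with 5 it was 0.93 for BCL2, which alone of the 4 fell below 2-fold, 1.41 for BCL2L11, 1.93 for CDKN1A and 1.33 for SESN1. As deposited, the log2 ratio was 5.88 for BCL2, 2.28 for BCL2L11 and 2.54 for SESN1. Centring on the median of the table, which takes its one-sided selection as a shift, gave 1.08 for BCL2, and 0.69 for BCL2L11, 0.81 for CDKN1A and 0.79 for SESN1, under 2-fold. Without scaling, the read-count fold was 5.55 for BCL2L11 and 5.25 for CDKN1A.

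Counts fall by construction under stricter rules. The 1650 genes at least 2-fold higher were 844 with a pseudocount of 5, 279 after centring and 436 at 4-fold, and p53 targets were 8, 2 and 4, and 9 under the filter that asks a mean of 5 or more. FOXO genes were 3, 0 and 3, and 6 under that filter. BH3-only genes were 1, 0 and 1, and 1 under that filter, and the sestrin list likewise 1, 0, 1 and 1. STAT3 targets were 1 with a pseudocount of 5, 1 after centring and 1 under that filter, and estrogen-responsive genes 1 with a pseudocount of 5. The caspase list gave 0 with a pseudocount of 5, after centring and at 4-fold, the G1/S list 0 under all 4, the pore formers 0 after centring and at 4-fold, the death receptor and CDK inhibitor lists 0 after centring, and the pro-survival list 0 with a pseudocount of 5 and under that filter. No paired analysis was possible because each genotype had 1 library, and for the same reason none could be left out. Depth limits BCL2 most, with 3 wild-type reads.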

Other observations

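Protein-coding genes around the 4 were looked up within 1 Mb on either side in GENCODE 29. Around BCL2, 1 of 18 was in the table, SERPINB8, a serpin protease inhibitor, at 3.76 in the knockout library against 0.79. Around BCL2L11, 3 of 11 were, namely MTLN, a mitochondrial micropeptide (6.61 against 1.76), RGPD6 (4.97 against 0.73) and ACOXL, which ends just before BCL2L11 (1.13 against 0.45). RGPD6 belongs to a family of near-identical copies, which may have traded reads in counting. Around CDKN1A, 2 of 32 were, PIM1 (2.92 against 1.40) and CLPSL2 (3.38 against 1.41, from 25 and 9 reads). Around SESN1, 0 of 15 were. Over the genome 10.1% of protein-coding genes were in the table, and no comparison with that share was tested.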
